A study of Drosophila melanogaster with 2 samples.

Results

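Some genes can begin their transcripts at promoters that lie many kilobases apart, and the peaks described here are those of CG13287 at such genes. They were taken from the conservative list made from both replicates of a chromatin immunoprecipitation and sequencing experiment, on the dm6 assembly. A peak was included when its summit lay within 500 bp of a transcription start site (TSS) of a protein-coding gene whose outermost annotated TSSs are at least 5 kb apart, with no TSS of another protein-coding gene within 1000 bp of the summit. This gave 514 of 5955 peaks on the chromosome arms (8.63%), at 350 of the 803 genes with such distant TSSs (43.6%, exact 95% interval 40.1 to 47.1). Without the condition on other genes there would have been 751 peaks at 484 genes. The list of replicate 1 alone gave 204 genes by the same rule and that of replicate 2 gave 423. The question asked of these peaks was which of a gene's start sites is occupied.

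The material was whole Drosophila melanogaster embryos, 6 to 24 h old, of the fly strain CG13287-GFP, which carries an insertion that makes a CG13287-eGFP fusion protein. Chromatin sonicated to 200 to 800 bp was precipitated through the GFP tag. The age is that of the source name, because another field of the labels gives an impossible age. There were 2 biological replicates of this 1 group, with no untagged, untreated or other control group, and both replicates carry the transgene. A whole embryo mixes many tissues and ages, so a gene with 2 occupied promoters may have both occupied in the same cells or each in different cells, and these cases cannot be told apart here. The files are peak lists without read counts, so the depth of the libraries is unknown. The filtered lists held 3997 peaks on the arms in replicate 1 and 7340 in replicate 2.

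Alternative promoters let 1 gene make transcripts that differ in their leader, and often in the start of the protein, and that are active in different tissues or stages. In flies, promoters of broadly active genes often carry the DRE element bound by DREF, the M1BP site or the Ohler 7 motif, whereas promoters of developmentally regulated genes more often carry GAGA repeats, bound by the GAGA factor, or a TATA box. CG13287, known by its gene number, was assayed as a transcription factor, and the labels say nothing of its role at promoters. TSSs of a gene were put into start-site groups, a gap of more than 1000 bp between neighbours starting a new group. The group at the 5′ end of the gene is called first, that at the 3′ end last, and the others inner. A group is called bound when a member peak lies within 500 bp of one of its TSSs. It is called clear when no TSS of another protein-coding gene lies within 1500 bp of any of its TSSs, so that the rule on other genes cannot hide a peak there.

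The sequences just before bound and unbound start sites of the same gene show what the comparison looks like at the level of bases. They are the 120 bases before the TSS with the most transcripts in each group, in dm6 coordinates, read 5′ to 3′ on the strand of the gene from the RefSeq Release 6 genome. The 8 genes were drawn in turn from the genes with the strongest peaks, those bound at several groups and those bound at the last group alone. They are not the 8 strongest, since drawing in turn up to 8 genes leaves out Tpr2, kis and Rtnl1, for example, Pfrx was passed over because a window overlaps an annotated untranslated region, and Gp150 is not shown. Genes bound at several groups, milt and Usp10, are shown with their second bound group in place of an unbound one. Capitals mark any of the 7 motifs counted further on, on either strand. The bound window holds an E-box at Snx27, the DRE at su(w[a]), Ohler 7 at Oatp30B and jigr1 and the M1BP site at bun, with a TATA box besides at Oatp30B. The unbound windows of Snx27, Oatp30B, bun and su(w[a]) hold none of the 7 motifs, that of jigr1 holds a Zelda motif, and both windows of Spn hold none.
Snx27, bound group, chrX:5738032-5738151 (minus strand): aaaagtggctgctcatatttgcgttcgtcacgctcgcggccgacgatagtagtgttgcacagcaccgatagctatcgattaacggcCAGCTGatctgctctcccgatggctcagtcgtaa
Snx27, unbound group, chrX:5723571-5723690 (minus strand): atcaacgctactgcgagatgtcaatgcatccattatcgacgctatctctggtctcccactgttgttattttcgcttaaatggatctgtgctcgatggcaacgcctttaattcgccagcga
su(w[a]), bound group, chrX:1033196-1033315 (plus strand): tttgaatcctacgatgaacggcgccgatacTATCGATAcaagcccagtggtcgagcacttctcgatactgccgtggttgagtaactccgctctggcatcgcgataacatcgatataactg
su(w[a]), unbound group, chrX:1012659-1012778 (plus strand): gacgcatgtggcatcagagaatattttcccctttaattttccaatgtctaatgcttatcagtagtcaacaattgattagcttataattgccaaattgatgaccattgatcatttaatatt
Oatp30B, bound group, chr2L:9521090-9521209 (plus strand): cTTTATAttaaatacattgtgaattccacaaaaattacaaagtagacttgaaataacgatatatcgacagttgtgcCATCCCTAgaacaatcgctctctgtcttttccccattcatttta
Oatp30B, unbound group, chr2L:9534628-9534747 (plus strand): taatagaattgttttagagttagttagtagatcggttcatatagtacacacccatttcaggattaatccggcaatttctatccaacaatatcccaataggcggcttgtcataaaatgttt
bun, bound group, chr2L:12546612-12546731 (minus strand): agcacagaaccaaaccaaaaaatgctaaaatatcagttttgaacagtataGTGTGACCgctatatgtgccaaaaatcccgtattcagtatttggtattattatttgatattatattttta
bun, unbound group, chr2L:12483590-12483709 (minus strand): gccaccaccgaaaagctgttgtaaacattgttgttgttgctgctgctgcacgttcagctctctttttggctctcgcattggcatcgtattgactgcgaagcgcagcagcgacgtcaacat
milt, bound group, chr2L:7042239-7042358 (plus strand): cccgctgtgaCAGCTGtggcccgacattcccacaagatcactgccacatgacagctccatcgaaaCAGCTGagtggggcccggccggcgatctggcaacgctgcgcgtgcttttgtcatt
milt, second bound group, chr2L:7049152-7049271 (plus strand): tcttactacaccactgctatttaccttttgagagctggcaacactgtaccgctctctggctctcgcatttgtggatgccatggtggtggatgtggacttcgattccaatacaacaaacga
jigr1, bound group, chr3R:25647126-25647245 (plus strand): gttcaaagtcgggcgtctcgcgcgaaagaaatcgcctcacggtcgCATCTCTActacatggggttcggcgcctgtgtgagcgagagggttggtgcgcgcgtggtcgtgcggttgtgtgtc
jigr1, unbound group, chr3R:25637723-25637842 (plus strand): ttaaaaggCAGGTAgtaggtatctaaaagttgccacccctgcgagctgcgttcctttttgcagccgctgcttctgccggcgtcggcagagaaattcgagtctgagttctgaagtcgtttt
Spn, bound group, chr3L:2554293-2554412 (minus strand): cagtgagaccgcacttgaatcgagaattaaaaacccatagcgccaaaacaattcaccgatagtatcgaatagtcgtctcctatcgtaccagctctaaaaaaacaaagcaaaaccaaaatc
Spn, unbound group, chr3L:2536586-2536705 (minus strand): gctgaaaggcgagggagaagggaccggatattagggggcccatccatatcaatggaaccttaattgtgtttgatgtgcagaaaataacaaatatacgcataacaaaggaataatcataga
Usp10, bound group, chr3L:871779-871898 (plus strand): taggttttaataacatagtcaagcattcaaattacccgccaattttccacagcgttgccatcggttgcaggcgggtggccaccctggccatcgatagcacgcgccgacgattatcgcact
Usp10, second bound group, chr3L:872791-872910 (plus strand): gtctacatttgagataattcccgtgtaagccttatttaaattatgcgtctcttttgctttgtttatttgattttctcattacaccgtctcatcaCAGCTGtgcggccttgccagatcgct

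Most of the 12 strongest genes had their peak at the first start-site group. Of the 12 genes with the highest signal among peaks found in both replicates, 11 had that peak at the first group. Over all member peaks 227 were at first, 164 at inner and 123 at last groups, with median signals of 157, 133 and 152. Gp150, a leucine-rich repeat glycoprotein gene of the Notch pathway, had the highest signal of all 514 peaks, 1702 in the list of both replicates (2R, 22317240-22317838), with 874 in replicate 1 and 832 in replicate 2. The summit lay 83 bp upstream of the first of 3 start-site groups, and the inner and last groups, 5.24 and 7.46 kb downstream, had entries of at most 21.6 in the unfiltered ranked list of both replicates and no filtered peak. Snx27, which encodes a sorting nexin of endosomes, had 1637 (X, 5737716-5738339; 623 in replicate 1 and 1034 in replicate 2) at the first of its 2 groups. Its last group, 14.5 kb downstream, had no filtered peak and no entry in the ranked list of both replicates, and 17.6 in that of replicate 2 alone. An entry, where no list is named, is one in the ranked list of both replicates. Signals are the peak caller's own values, and those of the list of both replicates may be on another scale than those of a single replicate.

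Other genes in this set likewise had a member peak at the first group and none farther on, though some had weaker entries there. The transporter gene Oatp30B had 1530 (751 in replicate 1, 799 in replicate 2) at its first group, against a ranked entry of 28.2 at its last group 13.5 kb away. Spn, the gene for Spinophilin, a scaffold for protein phosphatase 1, had 1281 (570 in replicate 1, 731 in replicate 2) at the first group, where 10 of its 11 transcripts start, against 19.9 at the last. The co-chaperone gene Tpr2 had 1064 (551 in replicate 1, 518 in replicate 2) and 2 further groups without an entry. The chromatin remodeller gene kis had 1041 (477 in replicate 1, 563 in replicate 2) at its first group. Its last group, 28.9 kb away, had a ranked entry of 90.0 and a filtered peak of 72.1 in replicate 2 alone. For kto, which encodes a subunit of the Mediator kinase module, the first group had 932 (386 in replicate 1, 548 in replicate 2) and the last a ranked entry of 32.0. The germline gene enc had 896 (314 in replicate 1, 576 in replicate 2) and no entry at its last group 10.3 kb away.

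In 3 of the 12 genes a weaker peak stood at a further group. bun, a gene of the TSC-22 family of transcriptional regulators, had 1403 (608 in replicate 1, 762 in replicate 2) at the first of 6 groups and 129 at the last, 85.4 kb away, where only replicate 2 had a filtered peak (88.0). Rtnl1, which encodes a reticulon that shapes the endoplasmic reticulum, had 1030 (474 in replicate 1, 557 in replicate 2) at the first of 6 groups and 249 at the fifth (75.04 in replicate 1, 170 in replicate 2). The tyrosine phosphatase gene Ptpmeg2 had 956 (365 in replicate 1, 589 in replicate 2) at the first of 5 groups and between 103 and 210 at 3 others. The peak of 210 had a filtered peak in both replicates (70.2 in replicate 1, 142 in replicate 2). That of 106 had one in replicate 2 alone (71.0), and that of 103 in neither. The 1 gene of the 12 bound elsewhere was su(w[a]), a regulator of splicing. It had 1079 (418 in replicate 1, 676 in replicate 2) at its last group, 20.5 kb inside the gene, where 6 of its 7 transcripts start, and a ranked entry of 19.7 at the first.

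**Figure D1:**
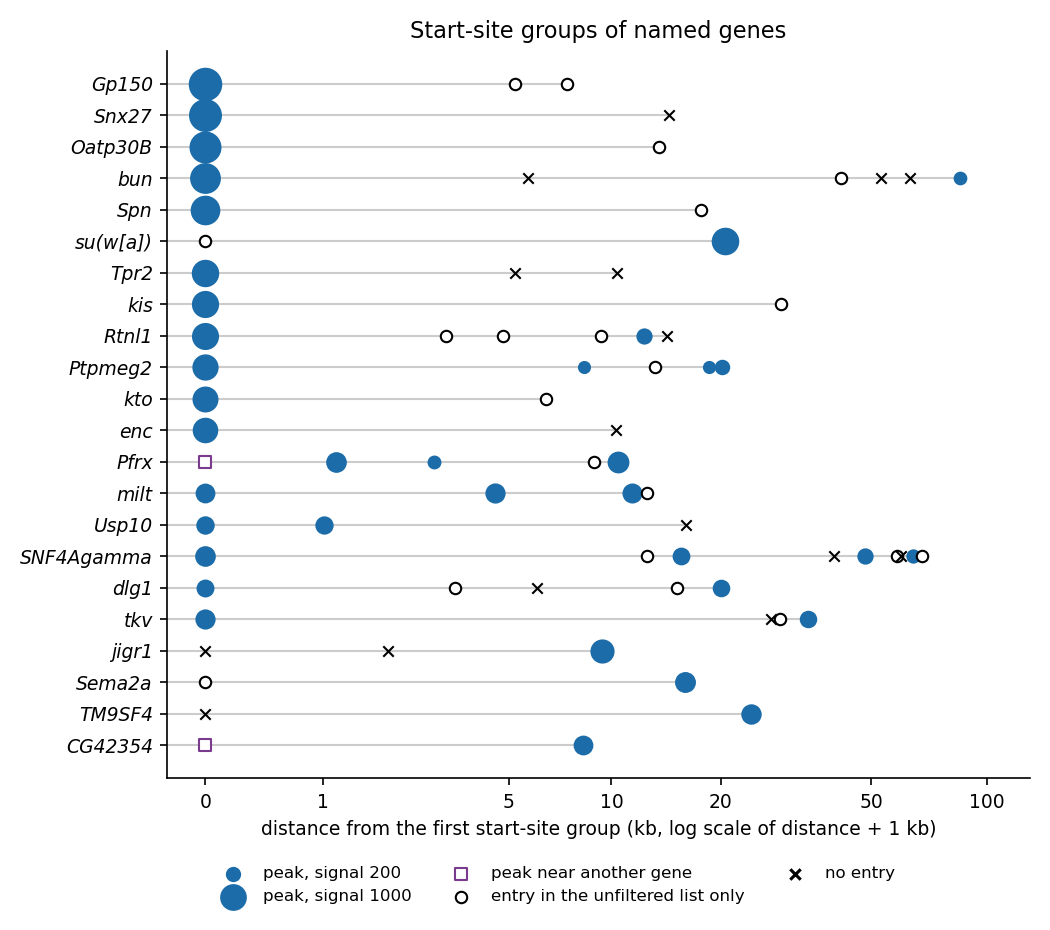
Start-site groups of 22 named genes by distance from the first group (kb, log scale of distance + 1 kb). Filled circles are member peaks, with area by signal in the list of both replicates, and open squares are peaks close to another gene. Open circles are entries of the unfiltered ranked list of both replicates alone, and crosses are groups without an entry there. The largest circles stand at the first group in 11 of the 12 uppermost genes, su(w[a]) being the exception.

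Most genes were bound at a single start-site group. Of the 350 genes 272 (77.7%, exact 95% interval 73.0 to 82.0) had 1 bound group, 66 had 2, 8 had 3 and 4 had 4. Among genes with 2 groups 145 of 157 were bound at 1 (92.4%), among those with 3 it was 71 of 94 (75.5%), with 4 it was 37 of 57 (64.9%) and with 5 or more 19 of 42 (45.2%). All groups were bound in 13 genes, 12 with 2 groups and pum, a translational repressor gene, with 3. Counted per gene, 43.6% of genes with distant TSSs had a peak by the same rule, against 14.3% of other protein-coding genes, whose start sites are fewer. The rule on other genes also leaves out peaks unequally in the 2 sets. Of 16419 start-site groups in all, 2329 were in genes with distant TSSs, 1886 of them clear. In the other genes 6978 groups were clear. Counted per clear group, the shares were 21.4% in genes with distant TSSs and 22.4% in other genes. The 350 genes were taken for having at least 1 bound group. Whether the share bound at 1 group departs from what the per-group share alone would give was not tested.

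The first group was bound more often than the last. Among clear groups 170 of 501 first groups (33.9%, exact 95% interval 29.8 to 38.3), 130 of 669 inner groups (19.4%, 16.5 to 22.6) and 104 of 715 last groups (14.5%, 12.04 to 17.3) were bound. The clear groups of other genes, at 22.4%, lay between first and inner groups. In the 466 genes whose first and last groups were both clear, 142 were bound at the first alone, 44 at the last alone, 21 at both and 259 at neither. The first group was thus the one bound in 76.3% of the 186 genes with 1 of the 2 bound (exact 95% interval 69.6 to 82.3), which an exact two-sided sign test over genes placed past the threshold (adjusted p = 2.82e-12, Benjamini-Hochberg over 9 tests). In replicate 1 alone and in replicate 2 alone the direction and the side of the threshold were the same. As no test could run over replicates, each p describes the list and not the spread between embryos.

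**Figure D2:**
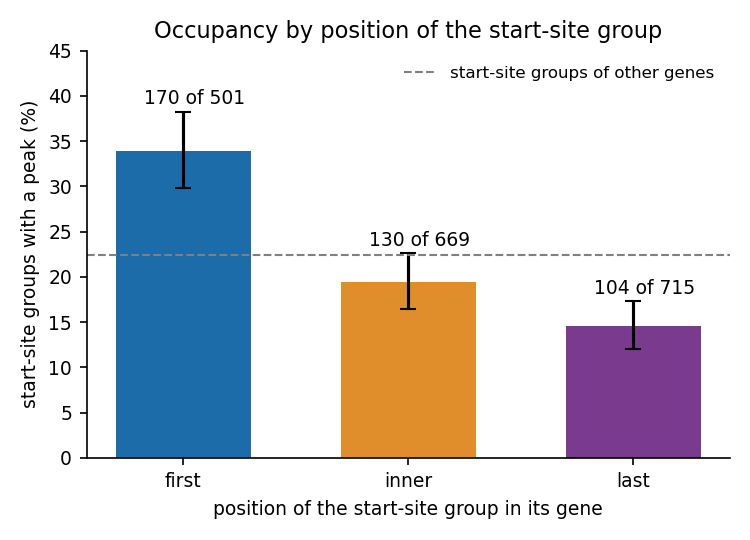
Share of clear start-site groups with a member peak (%), for first, inner and last groups of genes with distant TSSs, with exact 95% intervals that cover counting error only. The dashed line is the share among clear groups of other protein-coding genes (22.4%). First groups, at 33.9%, stand above it and last groups, at 14.5%, below it.

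Genes with every group clear give the choice without interference from neighbours. Of 454 such genes 228 were bound, 177 of them at 1 group (77.6%). That group was the first in 122 (68.9%, exact 95% interval 61.5 to 75.7), an inner one in 20 (11.3%) and the last in 35 (19.8%). An equal choice among the groups of each gene would give 42.2% at the first. Over all 272 genes bound at 1 group, with neighbours allowed, 144 were bound at the first (52.9%), 61 at an inner (22.4%) and 67 at the last group (24.6%). The rule on other genes touches first groups most, as 301 first, 55 inner and 87 last groups had another gene's TSS nearby. Of these 25 first (8.31%), 8 inner (14.5%) and 7 last groups (8.05%) were counted as bound.

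With neighbours allowed, the share at the first group was lower where the outermost TSSs were farther apart. Among genes bound at 1 group it was 53 of 82 (64.6%) where the outermost TSSs were 5 to 10 kb apart, 43 of 78 (55.1%) at 10 to 20 kb, 43 of 87 (49.4%) at 20 to 50 kb and 5 of 25 (20%, exact 95% interval 6.83 to 40.7) from 50 kb on. Equal choice among the groups would give 44.7%, 39.3%, 39.0% and 29.1% in the same order, so the number of groups per gene changes along with the distance. With 2 groups, both clear, and 1 bound, the first was bound in 36 of 42 genes (85.7%) at 5 to 10 kb. It was 27 of 31 (87.1%) at 10 to 20 kb, 22 of 32 (68.8%) at 20 to 50 kb and 2 of 3 from 50 kb on. In these genes the share was thus not lower at 10 to 20 kb than at 5 to 10 kb. The trend was not tested.

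Of the 5 genes of largest extent bound at 1 group, 0 had it at the first. Ten-a, a teneurin gene of synaptic partner matching, spans 186 kb between its outermost TSSs and had 191 at the third of 4 groups (X, 12203692-12203951), with 153 in replicate 2 and no filtered peak in replicate 1. For sick, a gene of actin regulation in axons, the last of 7 groups had 206 (154 in replicate 2, no filtered peak in replicate 1), 139 kb from the first. The first group of sick had a peak of 534 that also lay close to another gene and so was not counted. CG32816 had 175 at the last of 3 groups (78.3 in replicate 1, 84.3 in replicate 2). Svil, the gene for the actin-associated protein supervillin, had 480 at the fourteenth of its 16 groups (206 in replicate 1, 272 in replicate 2) and an uncounted peak of 221 at the first group, close to another gene. mtgo had 141 at the inner of 3 groups (94.8 in replicate 2, no filtered peak in replicate 1).

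After su(w[a]), the strongest peaks of genes bound at the last group alone had signals of 458 to 779. These genes were picked for their signal, and the median over all peaks at last groups was 152. jigr1, a gene for a nuclear protein with a MADF domain, had 779 (412 in replicate 1, 370 in replicate 2) at the last of 3 groups and no entry at the others. Sema2a, a secreted semaphorin of axon guidance, had 534 (238 in replicate 1, 292 in replicate 2), against 35.9 in the ranked list at the first group. TM9SF4 had 500 (223 in replicate 1, 274 in replicate 2) at its last group, 24.1 kb from the first, which had no entry. CG42354 had 458 (175 in replicate 1, 282 in replicate 2) at the last group. Its first group had an uncounted peak of 94.1 close to another gene.

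Where a gene was bound at several groups, the peaks were often of like strength, though all had passed the same filter. No comparison with the likeness of peaks of different genes was made. The 78 genes bound at 2 or more groups (22.3%) had a median ratio of the strongest to the next group of 1.39 (quartiles 1.17 and 1.62, highest 14.6), and in 18 the ratio was above 2. The first group was bound in 51 of them and was the strongest in 30 of these 51 (58.8%, exact 95% interval 44.2 to 72.4). milt, which encodes an adaptor between mitochondria and kinesin, had 460, 484 and 473 at its 3 bound groups within 11.4 kb, with 175, 198 and 148 in replicate 1 and 280, 275 and 324 in replicate 2. Usp10, a deubiquitinase gene, had 372 and 366 at groups 1.01 kb apart, and no entry at the last group, 16.1 kb from the first. dlg1, the gene for the junction scaffold Discs large, had 341 at the first (131 in replicate 1, 225 in replicate 2) and 323 at the last group (175 in replicate 1, 141 in replicate 2), 20.003 kb apart. Which of the 2 was higher thus differed between the replicates.

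In the other named genes of this kind the groups were farther apart or more numerous. tkv, which encodes a type I receptor for the BMP ligand Dpp, had 485 at the first (191 in replicate 1, 306 in replicate 2) and 317 at the last group (136 in replicate 1, 172 in replicate 2), 34.0 kb away, and no filtered peak at the 2 inner groups. SNF4Agamma, the gamma subunit gene of AMP-activated kinase, had 517, 334, 253 and 157 at 4 of 9 groups, falling with distance from the first. The same order held in replicate 1 (222, 153 and 87.1, with no filtered peak at the fourth) and in replicate 2 (320, 182, 157 and 110). Pfrx, which encodes a 6-phosphofructo-2-kinase, had 517, 137 and 597 at 3 of 5 groups, and an uncounted peak of 361 at the first, close to another gene.

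The bound group started more annotated transcripts than an unbound group of the same gene more often than it started fewer. For this and for the motifs, each gene gave 1 pair of clear groups, the bound group with the highest signal and the unbound group farthest from it, in 285 genes. The bound group had more transcripts in 154 pairs and fewer in 55, with 76 ties (73.7% of the untied pairs, exact 95% interval 67.2 to 79.5, exact two-sided sign test, adjusted p = 2.16e-11). Where the bound group was the first it was 91 of 114 untied pairs (79.8%), and where it was not 63 of 95 (66.3%, 55.9 to 75.7), both past the threshold. Among 214 genes bound at 1 group and with a single group of most transcripts, that group was the bound one in 134 (62.6%). In 205 of 285 pairs (71.9%) the transcripts of the bound and the unbound group shared no annotated start codon, so there the 2 groups begin different protein ends. The number of annotated transcripts also reflects how well a promoter has been sampled, and no expression was measured here. A group with more TSSs also has more places where a summit counts, which was not adjusted for.

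Sequence motifs were counted from 150 bp before to 50 bp after the main TSS of each group. Bound windows more often held GAGA repeats, the E-box, the DRE and the M1BP site than unbound windows of the same genes. The repeat of the GAGA factor (GAGAGA) was present in 105 bound and 51 unbound windows of 285 (36.8% and 17.9%), in the bound window alone in 83 pairs and in the unbound alone in 29 (exact two-sided McNemar test, adjusted p = 9.87e-07). The E-box (CAGCTG) was in 54 bound and 31 unbound windows (18.9% and 10.9%, 48 pairs against 25, exact adjusted p = 0.0143). The DRE (TATCGATA) was in 18 bound and 3 unbound windows (6.32% and 1.05%, 17 pairs against 2, exact adjusted p = 0.00164). The M1BP site (GGTCACAC) was in 14 bound windows and 1 unbound window (4.91% and 0.351%, 14 pairs against 1, exact adjusted p = 0.00176). In the list of replicate 1 alone the E-box (25 pairs against 17, exact adjusted p = 0.36) and M1BP (11 against 3, exact adjusted p = 0.0861) missed the threshold, and with peaks above the median signal GAGA did as well (32 against 16, exact adjusted p = 0.0527).

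Ohler 7 (CATCNCTA), the TATA box (TATAAA) and the Zelda site (CAGGTA) did not pass the threshold. Ohler 7 was in 7 bound windows and 1 unbound window (exact adjusted p = 0.0791), TATA in 30 bound and 46 unbound windows (10.5% and 16.1%, exact adjusted p = 0.0719) and Zelda in 12 bound and 15 unbound windows (exact adjusted p = 0.701). All motifs were sought on either strand, and none of the 7 strings is part of another. In windows of all 16419 start-site groups of protein-coding genes, GAGA was at 10.7%, the E-box at 14.03%, DRE at 7.12%, M1BP at 6.27%, Ohler 7 at 4.89%, TATA at 30.3% and Zelda at 4.23%. Bound windows of the paired genes lay above all groups for GAGA and the E-box and below them for DRE, M1BP, Ohler 7 and TATA, with Zelda at 4.21%. Unbound windows lay above all groups for GAGA and Zelda and below them for the other 5, and none of these differences was tested. The 16419 groups were not limited to clear groups, as the paired groups were. Many of them thus had another gene's TSS nearby, and the comparison with all groups is not like for like.

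GC content moved with binding in these pairs, with a median of 50% in bound and 47.0% in unbound windows, and its part in the motif shares was not tested directly. In the 107 pairs whose GC content differed by at most 5 percentage points, 2 of the 7 motifs passed the threshold, and the E-box (17 pairs against 13, exact adjusted p = 0.752) and M1BP (3 against 0, exact adjusted p = 0.45) did not. With 3 discordant pairs M1BP could not have passed there. In shorter windows, 50 bp to each side of the TSS, 0 motifs passed by the exact McNemar test with adjustment and 2 without it. The bound window alone held the motif in most discordant pairs there too, 8 against 1 for DRE and for M1BP, 19 against 9 for the E-box and 23 against 11 for GAGA.

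The motifs also differed with the position of the group. DRE was in 8.24% of the 170 bound first groups and 1.21% of the 331 unbound first groups, but in 1.54% of the 130 bound and 0.742% of the 539 unbound inner groups, and 3.85% of the 104 bound and 0.655% of the 611 unbound last groups. M1BP stood in 8.24% of bound and 0.906% of unbound first groups. GAGA ran the other way, with 27.6% of bound and 19.6% of unbound first groups, 42.3% of bound and 18.0% of unbound inner groups and 48.1% of bound and 16.9% of unbound last groups. When pairs whose bound group was the first and those where it was not were tested apart, DRE and M1BP passed the threshold in the 143 pairs bound at the first. In the other 142 pairs DRE was in the bound window alone in 5 pairs and in the unbound alone in 1, and M1BP in 3 and 0 pairs (exact adjusted p = 0.321 for each). With 3 discordant pairs M1BP could not have passed an exact two-sided test, and DRE had few discordant pairs as well. Missing the threshold in this set therefore says little about these 2 motifs. GAGA passed in both sets, with 31 pairs against 15 where the bound group was the first (exact adjusted p = 0.0466) and 52 against 14 where it was not (exact adjusted p = 1.27e-05). Where it was not the first, the E-box (24 pairs against 9, exact adjusted p = 0.0244) and the TATA box (4 against 17, exact adjusted p = 0.0162) also passed, TATA in favour of the unbound window. The difference between the 2 sets was not tested. Bound groups of other protein-coding genes, 1900 in all, had DRE at 17.3%, M1BP at 12.5% and GAGA at 13.1%, with a median GC content of 40.0%. These were not limited to clear groups, as the groups by position were.

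**Figure D3:**
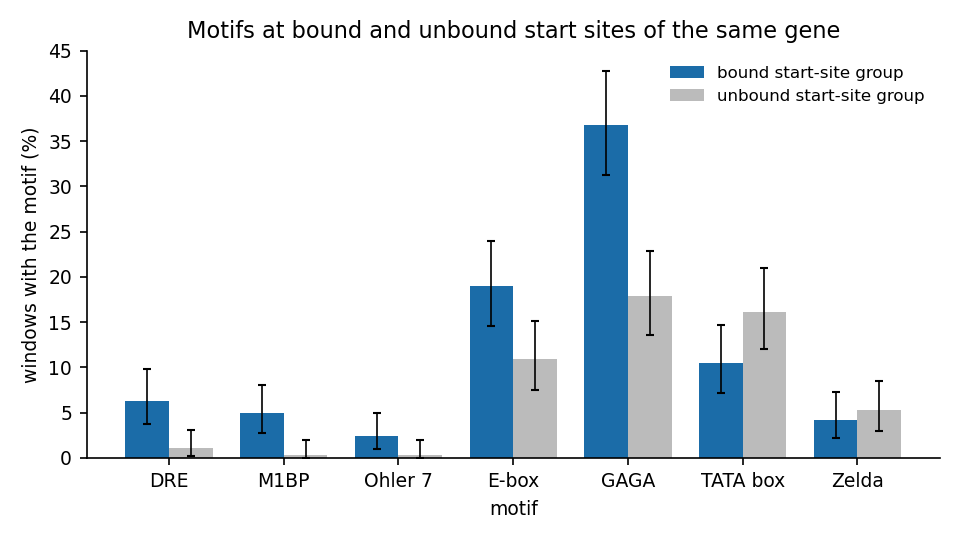
Share of windows (%) with each of the 7 motifs in 285 pairs of start-site groups of the same gene, bound in blue and unbound in grey, with exact 95% intervals that cover counting error only. GAGA, at 36.8% in bound and 17.9% in unbound windows, shows the widest gap in percentage points, and TATA and Zelda are lower in bound than in unbound windows without passing the test.

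Summits lay just upstream of the start sites. Their median position was 53 bp upstream of the nearest TSS of the gene (-53 bp, quartiles -145 and 18.8 bp), 68.5% were upstream and 83.1% within 200 bp. The 2156 peaks at 1 gene with TSSs closer together had a median of -33 bp (quartiles -81 and 17 bp), with 67.9% upstream and 88.7% within 200 bp. By position the medians were -51 bp at first, -52 bp at inner and -62 bp at last groups, against an SD of 36.1 bp between the medians of the single replicates' own lists. In 68 of the 444 bound groups 2 or more member peaks shared the group.

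**Figure D4:**
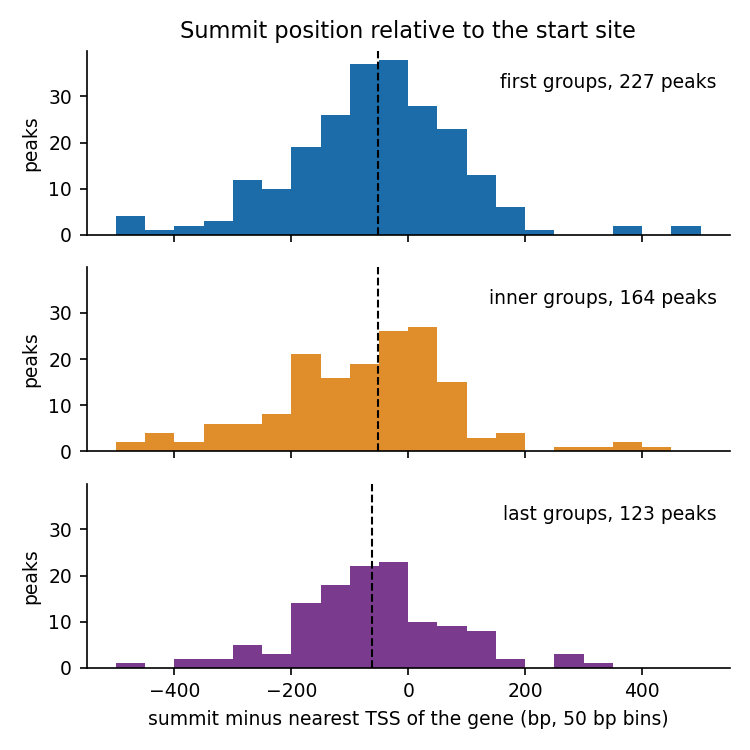
Number of member peaks by the position of the summit relative to the nearest TSS of the gene (bp, bins of 50 bp, negative upstream), for 227 peaks at first, 164 at inner and 123 at last groups. Dashed lines are the medians, which at -51, -52 and -62 bp all lie just upstream of the TSS.

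The peaks had a lower median signal than those of other single-gene promoters and fewer of them were in replicate 1's filtered list, differences that were not tested. Their median signal was 148 (quartiles 109 and 209), against 186 (122 and 393) for the 2156 other peaks. By position it was 157 at first, 133 at inner and 152 at last groups. A filtered peak of replicate 1 overlapped 267 of the 514 peaks (51.9%, exact 95% interval 47.5 to 56.3) and one of replicate 2 overlapped 470 (91.4%, 88.7 to 93.7), while the other peaks had 68.9% in replicate 1 and 95.3% in replicate 2. Replicate 1 held a peak for 131 of 227 at first groups (57.7%), 69 of 164 at inner (42.1%) and 67 of 123 at last groups (54.5%), and replicate 2 for 210, 148 and 112 of the same. Both replicates had a filtered peak for 259, and neither had one for 36 (7.004%). The unfiltered ranked lists held an overlapping entry for 510 in replicate 1 and 512 in replicate 2, so nearly all of the peaks missing from replicate 1's filtered list had an entry that did not pass its filter. Across the 259 peaks found in both, the signals had a Spearman correlation of 0.848, and it was 0.920 over 1458 other peaks. Both are descriptions, since peaks are not independent and share the 2 libraries. Each peak took the strongest replicate peak that overlapped it, so nearby summits can count the same replicate peak more than once. The kis peaks of 1041 and 94.7, for example, both carry 477 in replicate 1 and 563 in replicate 2. The shares found in each replicate count such peaks each time too.

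**Figure D5:**
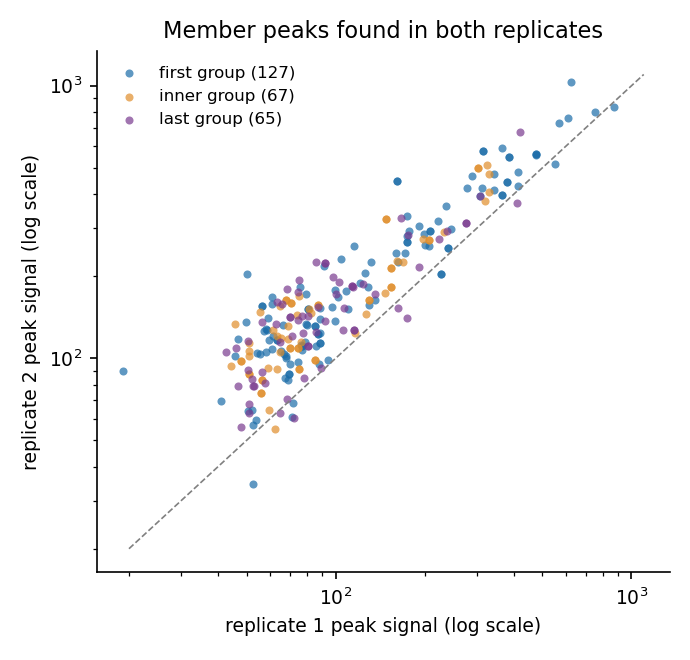
Signal of the 259 member peaks with a filtered peak in both replicates, replicate 1 against replicate 2 (both log scale), by position of the start-site group. Member peaks that overlap the same replicate peaks stand at the same point. The dashed line marks equal values, and most points of all 3 positions lie above it, with the higher value in replicate 2. The strongest peak is that of Gp150 in replicate 1 (874) and that of Snx27 in replicate 2 (1034).

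Many start sites without a peak still had a weak entry in the unfiltered lists. The 350 genes had 648 groups without a member peak. Of these 53 had a conservative peak that lay close to another gene, and 595 had none. In the ranked list of both replicates all 444 bound groups have an entry by construction, with a median signal of 159, and 287 of the 595 unbound groups (48.2%) had one within 500 bp, with a median of 55.8. It was 60 of 107 unbound first groups (56.1%), 126 of 252 inner (50%) and 101 of 236 last groups (42.8%). The filtered list of replicate 1 had a peak at 9 of the 595 (1.51%) and that of replicate 2 at 79 (13.3%). Each of the 595 is therefore a group without a peak past the filter on both replicates. Whether entries below that filter mark weak occupancy cannot be told from these lists, and occupancy without an entry is not detectable. The 53 do have such a peak, which was not counted. A gene counted as bound at 1 group can thus hold an uncounted peak at another.

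The gene lists are given as counts without a test, beside the 43.6% of all genes with distant TSSs that were bound. Of 9 ecdysone response genes with distant TSSs 5 were bound. EcR, the ecdysone receptor gene, had 177 at the last of its 3 groups (65.0 in replicate 1, 114.97 in replicate 2) and Eip78C, a nuclear receptor gene, 261 at the last of 2 (75.1 in replicate 1, 193 in replicate 2). The first group of EcR had a ranked entry of 19.98 and that of Eip78C none. ftz-f1, a nuclear receptor gene of the moults, had 747 at the first (288 in replicate 1, 467 in replicate 2) and 196 at the last group (76.7 in replicate 1, 143 in replicate 2), 35.6 kb apart. Of the 5, 3 were bound at the last group alone and the others at 2 or more groups. Hr3 had a peak that also lay close to another gene and was not counted.

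Among 6 genes for BTB and zinc finger regulators 4 were bound. lola had 204 at the last of 3 groups (70.0 in replicate 1, 141 in replicate 2), where 14 of its transcripts start, and ttk had 165 at the first and 135 at the last group. psq had 123 at the first of 3, with 88.7 in replicate 2 and no overlapping filtered peak in replicate 1. Of 4 homeotic and patterning genes, ct had 135 at the first group, with no filtered peak in replicate 1. hth had 142 at the last group, with no filtered peak in either replicate alone. Antp and Abd-B were not bound. Among 7 signalling genes 4 were bound, and 3 of these at 2 or more groups, while Egfr had an uncounted peak close to another gene. Raf, a kinase gene, had 294 at the last of 2 groups (114 in replicate 1, 184 in replicate 2) and a ranked entry of 82.3 at the first, 44.8 kb upstream. kay, the fly Fos gene, had 198 and 209 at its inner groups, and Src42A, a kinase gene, 166 at the first and 135 at the last. Replicate 1 had no filtered peak at the kay group of 198 or at either group of Src42A.

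Of 6 cytoskeleton and adhesion genes 4 were bound, 3 at several groups, and the others, hts and Tm1, had uncounted peaks close to another gene. Moe, the moesin gene, had 477 at the first of 7 groups (199 in replicate 1, 287 in replicate 2) and 95.4 at an inner one with no filtered peak in either replicate alone. shot, the spectraplakin gene, had 259, 266 and 186 at 3 of 4 groups, with 102, 127 and 80.8 in replicate 1 and 168, 145 and 111 in replicate 2. Of 4 neuronal genes only brp, an active zone gene, was bound, with 158 at the first group, where 12 of its transcripts start (78.1 in replicate 2, no filtered peak in replicate 1). Among 7 genes for RNA binding proteins 5 were bound. mub had 300 at the last of 2 groups (102 in replicate 1, 191 in replicate 2), mbl, the muscleblind gene, 203 at the inner of 3, where 13 transcripts start, and pum 78.2, 207 and 188 at its first, inner and last groups. At the first group of pum, replicate 1 had no filtered peak.

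Member genes lay on all arms, with 55 of 130 on 2L (42.3%), 84 of 170 on 2R (49.4%), 65 of 155 on 3L (41.9%), 79 of 168 on 3R (47.0%), 64 of 169 on X (37.9%) and 3 of 11 on chromosome 4 (27.3%, exact 95% interval 6.02 to 61.0). Near the limits of the rule, chb and HmgZ, with outermost TSSs 5008 and 5031 bp apart, had 164 and 197 and were included. yuri and CG17646, at 4949 and 4943 bp, had 331 and 137 and were not. Summits at -495 bp (bowl, 85.7) and -500 bp (gish, 150) from the TSS were included, and those at -511 bp (Ptpmeg2, 24.7) and -516 bp (alpha-Man-IIb, 664) were not. Peaks 1002 and 1008 bp from another gene's TSS (scrib, 162; Septin4, 80.5) were included, and peaks at 999 and 983 bp (pk, 194; GEFmeso, 165) were left out.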

How the data were processed

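Peak lists of 2 libraries on dm6 were used as deposited. The deposited signal (column 7) is the peak signal as the authors' caller gave it, and the other deposited column used is the summit offset, per the labels and the file layout. Lists were filtered or ranked by reproducibility by the authors, per the file names in the deposited listing. No source used here names the aligner, the peak caller or the scaling against a control. Depth is unknown, and intervals cover counting error only.

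Summits (start + offset) were set against the TSSs of the Ensembl BDGP6.54 annotation (release 115), with sequence from RefSeq Release 6, using Python 3.11.15, numpy 2.4.6, pandas 2.3.3 and scipy 1.17.1. Sign and McNemar tests were exact and two-sided over genes, with Benjamini-Hochberg adjustment over 9 tests and a threshold of 0.05. The 2 libraries form 1 group, so every test ran over genes and none over replicates, and each p describes the lists. Intervals are exact Clopper-Pearson 95% intervals. The counting and tests were tested on simulated peaks.

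Named genes were the 12 with the highest signal found in both replicates, the 6 bound at several groups with the highest second signal, the 5 bound at the last group alone with the highest signal, the 5 of largest extent bound at 1 group, and up to 3 bound members of each of 7 gene lists. The 7 lists matched the annotation in full. Genes near the limits of the rule are named as the nearest on either side. The members, lists and motifs were chosen with earlier results of these data known. Alternatives were other peak lists, distances, group gaps, motif windows and GC-matched pairs.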

Additional observations from a re-analysis of the deposited data

How the results depend on the processing

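Both sign tests kept their direction and stayed past the threshold under all alternatives run. The share of genes bound at the first rather than the last group ran from 73.7 to 79.7% under 12 alternatives. That of untied pairs with more transcripts at the bound group ran from 65.9 to 79.8% under 13. The median summit position ran from -89 to -38 bp. Numbers followed the length of the list. The single-replicate lists gave 204 genes with 262 peaks (replicate 1) and 423 genes with 665 peaks (replicate 2). The share of genes bound at 1 group was 70.9 to 85.8% in the single-replicate lists, 71.7% in the optimal list, 87.4% with peaks above the median signal and 71.9% with other genes nearby kept. With peaks above the median signal, 88.6% were found in replicate 1 and 99.4% in replicate 2.

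Of the 7 motifs 4 passed the threshold, against 3 to 5 in the single-replicate lists, 2 with peaks above the median signal (127 pairs; 3 without adjustment), 2 in GC-matched pairs (107 pairs) and 0 in windows of 50 bp on either side (2 without adjustment, exact McNemar test). All 7 motifs were compared each time, and whether fewer pairs or shorter windows account for the lower numbers was not tested. GAGA missed the threshold with peaks above the median signal (exact adjusted p = 0.0527). M1BP and the E-box missed it there too and in the replicate 1 list. Ohler 7 passed the threshold under 5 of the 12 alternatives and TATA under 4. Zelda turned to 53.8% of the discordant pairs in GC-matched pairs, against 44.4%, past the threshold in neither. The pairs split by whether the bound group is the first were added after the data were seen. No paired analysis was possible because there is 1 group of 2 libraries.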
